A study of Mus musculus with 4 samples.

Results

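The 26S proteasome is the protease that degrades ubiquitin-tagged proteins, and the genes of its core and regulatory particle were followed in CD8 T cells sorted from mouse liver. The members were the symbols of the deposited table that start with Psma, Psmb, Psmc or Psmd and a digit, without the immunoproteasome genes Psmb8, Psmb9 and Psmb10, whose mean across the 4 libraries was 1 or more. Of 15367 symbols, 37 matched by name and 34 passed the mean of 1. They were 6 alpha ring genes, 7 beta ring genes, 6 ATPase genes, 3 other base genes, 8 lid genes, 3 base chaperone genes and Psmc3ip, which matched by name only and encodes a meiotic recombination factor. The 3 that did not pass were Psma5, with a mean of 0.455 (0.577 and 0.441 in the libraries labelled Prf KO, 0.311 and 0.490 in WT), Psma8, a testis form of an alpha subunit, with 0.00783, and Psmb11, a thymus form of a catalytic subunit, which was listed at 0 in all 4 libraries. Just above the limit stood Psmc3ip (mean 1.22), Psmb5 (1.52) and Psma3 (1.62).

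RNA was sequenced from hepatic CD8 T cells of adult C57BL/6 perforin knockout mice (labelled Prf KO, 2 libraries) and of adult C57BL/6 WT mice (2 libraries). All 4 libraries came from mice fed an MCD diet for 4 weeks, so no library shows the state before the diet. The sources used here give neither the perforin allele nor the number of animals behind a library, and no label states that replicate libraries are from different animals; p-values therefore measure only the spread between libraries, which may be technical.

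The core particle is a barrel of stacked rings. The alpha subunits form the outer rings and gate the entrance, while the beta subunits form the inner rings and carry the proteolytic sites. The regulatory particle caps the barrel: its base unfolds substrates with a ring of ATPases, and its lid removes the ubiquitin chains. In lymphocytes, and in other cells exposed to interferon gamma, the immunoproteasome subunits can replace the constitutive catalytic beta subunits. This alters the peptides made for MHC class I presentation.

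All 4 libraries carried CD8 T cell RNA, but they did not resemble each other equally. The summed level of 7 of 8 listed CD8 T cell markers was 2106 and 2008 FPKM (fragments scaled to transcript length and library depth) in the libraries labelled Prf KO and 2205 and 2299 FPKM in WT. Prf1, which encodes perforin, had 95.4 and 98.7 FPKM in the libraries labelled Prf KO, against 125 and 113 FPKM in WT (log2 fold change -0.29, SE 0.24, limma adjusted p = 0.873). One value per gene does not reveal a loss of part of the transcript, so the level does not check the labels, and every direction below rests on them. Across the 9805 tested genes, the library labelled Prf KO replicate 1 correlated with the other 3 at r = 0.914 to 0.924, and the other 3 with each other at 0.961 to 0.969, across genes, which are not independent. The same library had the lowest sum of all values, 334493, against 378364 to 392785 in the other 3. Its summed level of 8 liver endothelial markers was 291 FPKM, against 69.7 FPKM in the library labelled Prf KO replicate 2 and 144 and 33.1 FPKM in WT. Its 9 macrophage and Kupffer cell markers summed to 157 FPKM, against 50.02 FPKM in the library labelled Prf KO replicate 2 and 54.4 and 37.3 FPKM in WT. Neutrophil markers (7 genes) summed to 104 and 143 FPKM in the libraries labelled Prf KO and 229 and 241 FPKM in WT. B cell markers (4 genes) summed to 22.9 and 58.0 FPKM in the libraries labelled Prf KO and to 37.6 and 45.8 FPKM in WT, and hepatocyte markers (5 genes, with Ttr and Fgb at 0 in all 4) to 10.6 and 1.01 FPKM and to 0 and 2.81 FPKM. The part of these cells in the results below was not tested. In such a bulk sample, fewer cells of a type and less RNA per cell cannot be told apart.

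Subunits that are built into the particle in equal numbers had very unequal RNA levels, and the order was alike in every library. By the ratio of highest to lowest FPKM, the base chaperones and the ATPase genes were the most even groups. The chaperones are not in the finished particle, and the groups held 3 to 8 genes each. Over the libraries the ratio was 11.0 to 16.1 for the other base genes and 44.5 to 55.8 for the lid. The chaperones had a ratio of highest to lowest FPKM of 3.64 and 2.75 in the libraries labelled Prf KO and 3.27 and 2.57 in WT. The ATPase genes had a ratio of highest to lowest FPKM of 4.02 and 3.69 in the libraries labelled Prf KO and 3.77 and 4.08 in WT. For the 6 alpha ring members the ratio was 107 and 84.2 in the libraries labelled Prf KO and 65.8 and 109 in WT. For the 7 beta ring members it was 105 and 147 in the libraries labelled Prf KO and 121 and 106 in WT. In every library the lowest value was that of Psma3 in the alpha ring and of Psmb5 in the beta ring. Both levels, and with them the ratios of these rings, are uncertain because of the copies described below. Members without such a copy had means from 27.7 (Psma6) to 136 (Psma7) FPKM in the alpha ring. In the beta ring they had means from 5.66 (Psmb4) to 171 (Psmb2) FPKM. The highest member was Psmd4, the ubiquitin receptor Rpn10 of the base, at 259 and 355 FPKM in the libraries labelled Prf KO and 425 and 383 FPKM in WT. Over the 34 members, the rank order of FPKM in 1 library correlated with that in another at Spearman's rho of 0.964 to 0.994, where the points share gene length and annotation.

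Several low values belong to genes with near-identical copies elsewhere in the genome, which makes the values uncertain. In the GENCODE M21 transcripts, 7 of the 34 members had a copy of at least 200 bases at 95% identity or more outside their own locus: Psma3, Psma4, Psmb3, Psmb5, Psmc1, Psmd2 and Psmd11. With Psma5, which has such copies too, these 8 genes had a median of 4.58 FPKM over the libraries' means, against 57.5 FPKM in the 26 subunit and chaperone genes without a copy. The 5 lowest of these 34 genes, Psma5, Psmb5, Psma3, Psmd11 and Psmb3, all had one. Psmb4 had none and stood at only 4.28 to 7.18 FPKM, while Psmc1 and Psmd2 had copies over 82.1% and 92.1% of their transcript and means of 64.0 and 73.6 FPKM. The sources used here do not give the authors' treatment of reads with several matches, and its effect on these levels was not tested. Levels of these 8 genes are therefore uncertain. A further uncertainty may touch 13 members. Their annotated gene span, introns included, overlaps that of a gene on the opposite strand. They are Psma2, Psma3, Psma4, Psma6, Psmb7, Psmc3, Psmc3ip, Psmd1, Psmd3, Psmd5, Psmd9, Psmd13 and Psmd14. The unstranded kit cannot separate reads from exons that overlap, and whether the exons overlap was not examined.

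**Figure D1:**
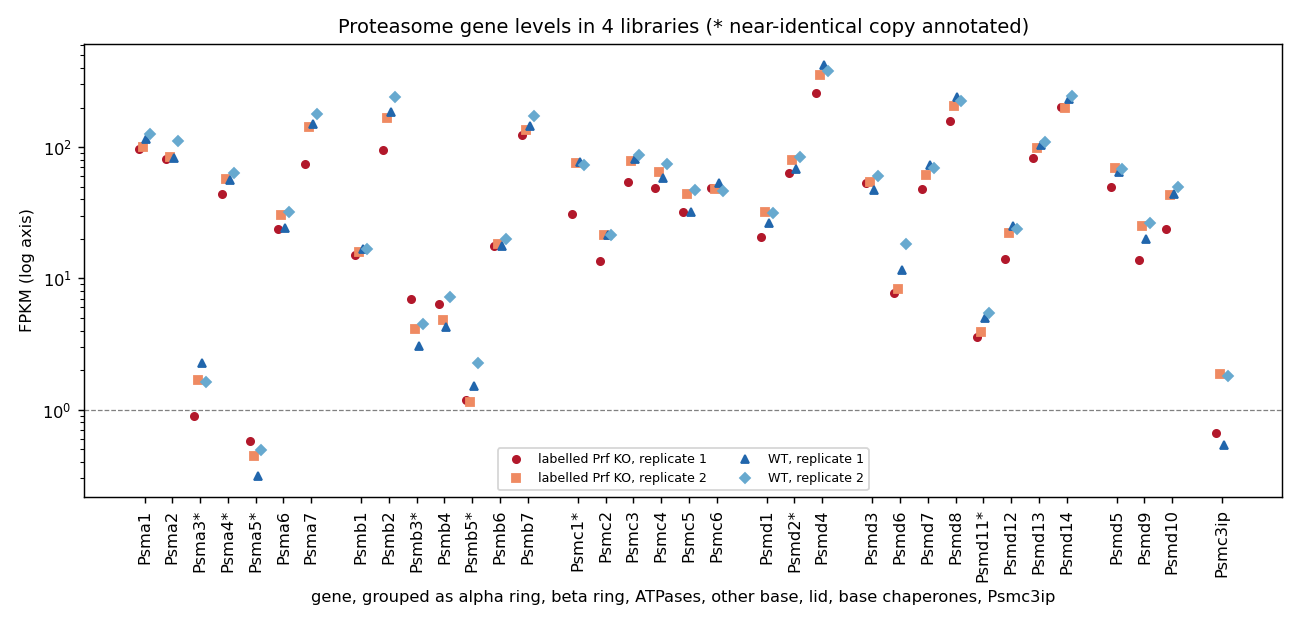
FPKM (log axis) for the 34 members and Psma5 in each library, grouped by place in the particle; each point is 1 library, the dashed line marks an FPKM of 1 and an asterisk marks a gene with a near-identical copy. Psmd4 is highest at 259 to 425, the ATPase genes lie close together, and Psma3, Psma5 and Psmb5 lie near or below 2.28.

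Most proteasome genes were lower in the libraries labelled Prf KO, by less than the test could call. The log2 fold change of log2(FPKM + 1), labelled Prf KO minus WT, was negative for 31 of the 34 members (91.2%), against 58.3% of all 9805 tested genes, and its median was -0.27 against -0.08. By limma, 0 of the 34 members passed an adjusted p of 0.05, as did 0 of all tested genes (0%), and the smallest adjusted p among members was 0.866. At an unadjusted p under 0.05 by limma there were 2 members, Psmd6 and Psmb2, both lower, and 0 higher, where 2.72% of all tested genes were lower and 2.07% higher at that level. The values of 16 members (47.1%) were lower in both libraries labelled Prf KO than in both WT libraries, against 21.9% of all tested genes, and 0 were higher in both, against 13.9%. The counts depend on scaling. After upper-quartile scaling, 25 members had a negative log2 fold change (50.8% of all tested genes), 15 were lower in both (18.6%) and 0 higher in both (17.4%). After median scaling these were 27 (53.7%), 16 (20.1%) and 0 (15.8%). Quantile normalisation gave 25 (52.2%), 15 (19%) and 0 (16.8%), and a common total per library gave 24 (48.6%), 15 (17.2%) and 0 (18.6%). The members' median was -0.19 after upper-quartile scaling and -0.17 with a common total.

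The library labelled Prf KO replicate 1 carried the larger part of this difference. It held the lowest of the 4 values for 27 of the 34 members (79.4%), against 43.6% of all tested genes. It lay below both WT libraries for 29 members, and the library labelled Prf KO replicate 2 did so for 16, against 48.9% and 34.2% of all tested genes. Those 16 were the same members that were lower in both. The summed member values made up 0.542% and 0.613% of the summed FPKM in the libraries labelled Prf KO and 0.664% and 0.692% in WT. Relative to the median of the other 3 libraries, the members' median was -0.42 and -0.03 in the libraries labelled Prf KO and 0.04 and 0.21 in WT, on the log2 scale, where all tested genes had -0.14, 0.02, 0.04 and 0.03. Without the library labelled Prf KO replicate 1, the members' median log2 fold change was -0.09, with 24 negative, 16 lower than both WT libraries and 3 higher, against -0.01 over all tested genes, of which 51.2% were negative, 34.2% lower and 31.9% higher. The median was -0.41 without the library labelled Prf KO replicate 2, -0.34 without WT replicate 1 and -0.18 without WT replicate 2. The first of these left 31 members negative, 29 lower and 1 higher, against 59.8%, 48.9% and 30.1% of all tested genes. Without WT replicate 1 the counts were 26 lower and 1 higher, against 36.3% and 26.1% of all tested genes, and without WT replicate 2 they were 20 lower and 4 higher, against 37.6% and 26.6%.

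**Figure D2:**
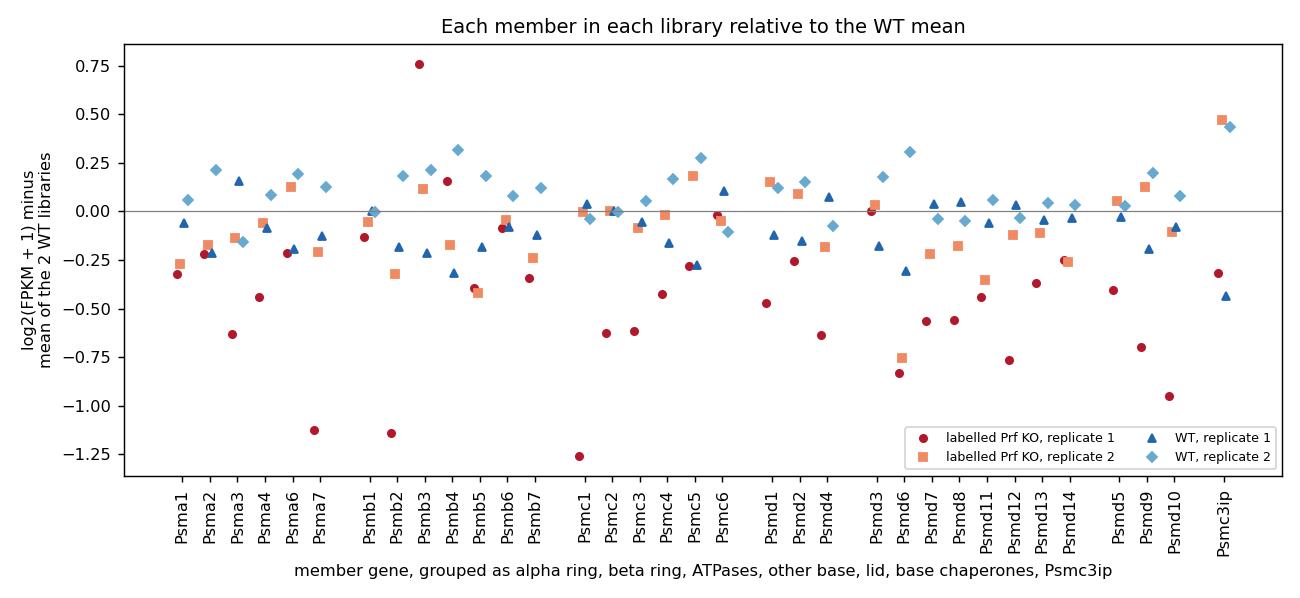
Log2(FPKM + 1) of each of the 34 members in each library, minus the mean of the 2 WT libraries, by subunit group; each point is 1 library and the line at 0 is the WT mean. The red circles of the library labelled Prf KO replicate 1 lie lowest for 27 members (79.4%). For 16 members (47.1%) both libraries labelled Prf KO lie below both WT libraries. Over all tested genes the shares were 43.6% and 21.9%.

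**Figure D3:**
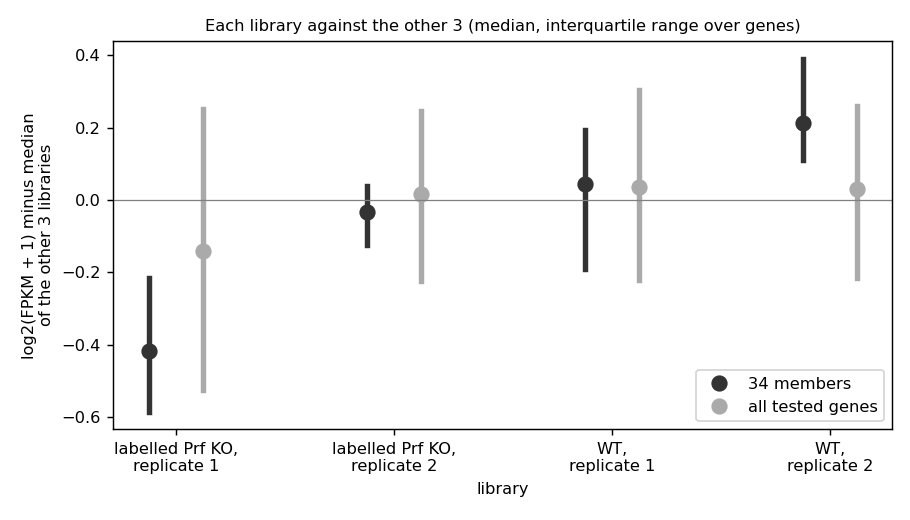
Median (point) and interquartile range (bar) over genes of log2(FPKM + 1) in a library minus the median of the other 3 libraries, for the 34 members and for the 9805 tested genes. The members' median was -0.42 in the library labelled Prf KO replicate 1 and 0.21 in WT replicate 2, further from 0 than the median of all tested genes in the same library.

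The lid, which cuts ubiquitin chains from substrates, was the group with the most members below both WT libraries. For 7 of its 8 member genes both libraries labelled Prf KO were below both WT libraries, and 0 were above both, against 21.9% and 13.9% of all tested genes. Shfm1, a further lid gene that the name rule does not match, went the other way with overlapping groups (log2 fold change 0.71, SE 0.35). The median log2 fold change of the group was -0.38, and 0 passed the test. The count of 7 was also reached with each scaling tried. Psmd6 (Rpn7, a scaffold subunit) had 7.77 and 8.26 FPKM in the libraries labelled Prf KO, against 11.6 and 18.3 FPKM in WT. Its log2 fold change of -0.79 (SE 0.32, limma adjusted p = 0.866) was the largest in size among the members. The libraries labelled Prf KO lay close together and the WT libraries further apart.

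Psmd7 (Rpn8), the structural partner of the deubiquitinase, had 48.0 and 61.2 FPKM in the libraries labelled Prf KO and 73.3 and 69.4 FPKM in WT (log2 fold change -0.39, SE 0.25). Psmd12 (Rpn5) had 13.9 and 22.3 FPKM in the libraries labelled Prf KO and 24.9 and 23.8 FPKM in WT (log2 fold change -0.44, SE 0.30). In Psmd12 the library labelled Prf KO replicate 2 was close to WT replicate 2, and replicate 1 was far below. Psmd14, the deubiquitinase Rpn11 itself, had 201 and 199 FPKM in the libraries labelled Prf KO and 233 and 244 FPKM in WT (log2 fold change -0.25, SE 0.24). Here the 2 libraries of each group were closer to each other than to the other group. Psmd8 (-0.37), Psmd11 (-0.39) and Psmd13 (-0.24) were also lower in both. Among the 8 lid members, Psmd3 (Rpn3) was the exception. It had 53.2 and 54.3 FPKM in the libraries labelled Prf KO, between the WT values of 46.9 and 60.2 FPKM. Without the library labelled Prf KO replicate 1 the lid median was -0.20, with 7 of 8 lower, against 34.2% of all tested genes.

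The starts of 6 of these lid genes are shown, since this group had the most genes below both WT libraries. They are RefSeq sequences of build GRCm38.p6, from 100 bases before to 20 bases after the annotated start, 5′ to 3′ on the gene's strand. Capitals mark CCGGAAG, a form of the site that ETS family factors recognise, and TGANNNNGC, each on either strand. Other forms of the ETS site were not marked. TGANNNNGC is a loose pattern for the core of the antioxidant response element, which NRF factors that control proteasome genes bind. It allows any base after TGA, so a marked stretch need not be such an element.
Psmd6, chr14:14120926-14121045, minus strand: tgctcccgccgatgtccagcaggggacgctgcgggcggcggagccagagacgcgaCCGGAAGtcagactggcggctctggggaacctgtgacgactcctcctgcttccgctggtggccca
Psmd12, chr11:107479428-107479547, plus strand: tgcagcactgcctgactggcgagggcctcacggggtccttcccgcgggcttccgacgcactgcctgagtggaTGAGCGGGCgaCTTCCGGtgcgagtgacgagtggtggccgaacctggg
Psmd8, chr7:29180654-29180773, minus strand: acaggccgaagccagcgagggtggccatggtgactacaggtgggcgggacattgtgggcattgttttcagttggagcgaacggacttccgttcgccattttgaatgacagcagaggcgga
Psmd11, chr11:80428515-80428634, plus strand: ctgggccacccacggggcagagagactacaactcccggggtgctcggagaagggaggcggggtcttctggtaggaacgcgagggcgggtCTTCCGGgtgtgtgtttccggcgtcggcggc
Psmd14, chr2:61711594-61711713, plus strand: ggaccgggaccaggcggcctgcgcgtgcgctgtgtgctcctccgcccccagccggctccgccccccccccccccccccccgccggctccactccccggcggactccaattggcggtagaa
Psmd13, chr7:140882294-140882413, plus strand: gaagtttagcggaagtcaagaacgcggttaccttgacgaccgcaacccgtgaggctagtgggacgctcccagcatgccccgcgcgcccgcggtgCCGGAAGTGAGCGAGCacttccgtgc
CCGGAAG was found on either strand within 250 bases before and 50 bases after the start in 11 of the 28 members with an entry (39.3%), against 8.86% of all 32851 such windows and 19.2% of the 9544 windows of tested genes. Of the members lower in both libraries labelled Prf KO, 5 of 11 held it, and of the others 6 of 17. TGANNNNGC was found in 16 of the 28 members (57.1%), against 41.3% of all windows and 43.3% of those of tested genes, with 5 of 11 and 11 of 17 in the same split. CCAAT was found in 42.9% of the 28 members, against 37.4% of all windows and 37.9% of those of tested genes. For GGGCGG, the core of the GC box, the shares were 64.3%, against 35.7% and 63.0%. A member counted if any of its windows matched, whereas the other shares are per window, so the measures differ. In Psmd13 the marked motifs adjoin without overlap. These 4 motifs were searched on both strands, CCGGAAG after the windows were seen, and a match is a description of letters only. No entry was matched for Psmb1, Psmb2, Psmb7, Psmc3, Psmd3 and Psmd7.

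Among the members of the base, the ubiquitin receptor gene Psmd4 was lower in both libraries labelled Prf KO, and the scaffold genes were not. The FPKM of Psmd4 were 259 and 355 in the libraries labelled Prf KO and 425 and 383 in WT (log2 fold change -0.41, SE 0.27). Psmd1 (Rpn2) had 20.6 and 32.2 FPKM in the libraries labelled Prf KO and 26.4 and 31.5 FPKM in WT (log2 fold change -0.16, SE 0.30). Psmd2 (Rpn1) had 63.0 and 80.2 FPKM in the libraries labelled Prf KO and 67.7 and 83.7 FPKM in WT (log2 fold change -0.08, SE 0.26), a sign that turned with upper-quartile, quantile and common-total scaling. In both scaffold genes the 2 libraries of a group lay further apart than the group means, and the groups overlapped. Adrm1, a subunit gene that the name rule does not match, was higher in both libraries labelled Prf KO. It had 8.31 and 9.51 FPKM there and 8.02 and 7.30 FPKM in WT (log2 fold change 0.19, SE 0.30).

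The ATPase genes differed mainly through the library labelled Prf KO replicate 1. Psmc1 (Rpt2) had 30.8 and 75.02 FPKM in the libraries labelled Prf KO and 77.0 and 73.1 FPKM in WT (log2 fold change -0.63, SE 0.39, limma adjusted p = 0.866). Psmc2 (Rpt1) had 13.5 and 21.4 FPKM in the libraries labelled Prf KO and 21.4 and 21.3 FPKM in WT (log2 fold change -0.31, SE 0.30). In both genes the library labelled Prf KO replicate 2 and the WT libraries agreed closely and replicate 1 alone was low. Psmc3 (Rpt5), at 54.3 and 78.9 FPKM in the libraries labelled Prf KO and 80.8 and 86.9 FPKM in WT, was the only one of the 6 with groups that did not overlap (log2 fold change -0.35, SE 0.27). That is 16.7% of the group, below the 21.9% of all tested genes that were lower in both libraries labelled Prf KO. Psmc4, Psmc5 and Psmc6 had log2 fold changes of -0.22, -0.05 and -0.03 with overlapping groups. All 6 ATPase genes had a negative log2 fold change as deposited, against 58.3% of all tested genes. With each scaling 4 of 6 did, against 48.6% to 53.7% of all tested genes. The group's median was -0.27, and -0.01 without the library labelled Prf KO replicate 1.

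In the alpha ring, all 6 members had a negative log2 fold change, against 58.3% of all tested genes. With each scaling 5 of 6 did, against 48.6% to 53.7% of all tested genes. The ring's median was -0.27, and 2 members (33.3%) were lower in both libraries labelled Prf KO, against 21.9% of all tested genes. The median was -0.15 without the library labelled Prf KO replicate 1, and 4 of 6 were negative without WT replicate 2. Psma7 (alpha4) had 74.5 and 141 FPKM in the libraries labelled Prf KO and 150.0 and 178 FPKM in WT (log2 fold change -0.67, SE 0.33, limma adjusted p = 0.866). Psma1 (alpha6) had 96.8 and 100.3 FPKM in the libraries labelled Prf KO and 116 and 126 FPKM in WT (log2 fold change -0.29, SE 0.24). Psma7 differed by more between the 2 libraries labelled Prf KO than between the group means, whereas Psma1 was even within each group. Psma4 (alpha3) had 43.7 and 57.3 FPKM in the libraries labelled Prf KO and 56.2 and 63.4 FPKM in WT, and its groups overlapped (log2 fold change -0.25, SE 0.26). Psma2, Psma3 and Psma6 had log2 fold changes of -0.20, -0.38 and -0.04 with overlapping groups. The library labelled Prf KO replicate 1 held the lowest value for all 6, against 43.6% of all tested genes.

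The beta ring was mixed. Of its 7 members, 4 (57.1%, against 21.9% of all tested genes) were lower in both libraries labelled Prf KO (3 with upper-quartile, quantile or common-total scaling) and 0 higher in both, and the median log2 fold change of -0.09 came to 0.007 with a common total per library. Psmb2 (beta4, a structural subunit) had 94.6 and 167 FPKM in the libraries labelled Prf KO and 184 and 239 FPKM in WT (log2 fold change -0.73, SE 0.32, limma adjusted p = 0.866). All 4 libraries were spread apart, with the lower values in the libraries labelled Prf KO. Psmb7, the trypsin-like subunit, had 124 and 134 FPKM in the libraries labelled Prf KO and 145 and 172 FPKM in WT (log2 fold change -0.29, SE 0.24). Psmb5, the chymotrypsin-like subunit and the target of clinical proteasome inhibitors, had only 1.18 and 1.14 FPKM in the libraries labelled Prf KO and 1.52 and 2.25 FPKM in WT (log2 fold change -0.41, SE 0.46). Its level is uncertain because of the copy named above. Psmb6, the caspase-like subunit, was even across all 4 libraries, with 17.6 and 18.1 FPKM in those labelled Prf KO and 17.6 and 19.8 FPKM in WT (log2 fold change -0.06, SE 0.27), and its sign turned with upper-quartile, quantile and common-total scaling. Psmb3 (beta3) was the member furthest in the other direction, with 7.004 and 4.11 FPKM in the libraries labelled Prf KO and 3.07 and 4.48 FPKM in WT (log2 fold change 0.44, SE 0.39). It was also the only member for which the library labelled Prf KO replicate 1 exceeded both WT libraries. Psmb1 and Psmb4 had log2 fold changes of -0.09 and -0.01.

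The base chaperones assemble the ATPase ring and are not part of the finished particle. All 3 had their lowest value in the library labelled Prf KO replicate 1, as did 43.6% of all tested genes. Their median log2 fold change was -0.29, but 0.05 without that library. Psmd10 (gankyrin) had 23.7 and 43.4 FPKM in the libraries labelled Prf KO and 44.2 and 49.4 FPKM in WT, without overlap (log2 fold change -0.53, SE 0.32). Psmd9 had 13.7 and 24.97 FPKM in the libraries labelled Prf KO and 19.8 and 26.3 FPKM in WT (log2 fold change -0.29, SE 0.34). Psmd5 had 49.8 and 68.6 FPKM in the libraries labelled Prf KO and 64.9 and 67.5 FPKM in WT (log2 fold change -0.18, SE 0.26). For both, the library labelled Prf KO replicate 2 was among the WT values or above them. Psmc3ip, the recombination factor gene, had 0.664 and 1.87 FPKM in the libraries labelled Prf KO and 0.536 and 1.81 FPKM in WT (log2 fold change 0.08, SE 0.56). Without it, the members' median was -0.29, with 16 of 33 (48.5%) lower in both, against -0.08 and 21.9% over all tested genes.

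Genes that work with the proteasome included some lower and some higher in both libraries labelled Prf KO, and the difference from the members was not tested. Of 33 listed partners, 32 were tested and Paaf1 was not analysed here. The list held the immunoproteasome, subunits with other names, activators, assembly chaperones, shuttle factors, deubiquitinases, regulators and the p97 unfoldase. By limma 0 of the 32 passed in either direction, with 1 lower and 0 higher at an unadjusted p under 0.05. In both libraries labelled Prf KO, 10 were lower and 7 higher than in both WT libraries (31.2% and 21.9%, against 21.9% and 13.9% of all tested genes), and the median log2 fold change was -0.13. Within both same-numbered pairs of libraries, 16 were lower and 8 higher (50% and 25%, against 31.3% and 21.4% of all tested genes). The 10 lower ones included genes of cofactors of p97, which extracts ubiquitinated proteins. Vcp, the gene of p97 itself, overlapped between groups. It had 10.6 and 13.04 FPKM in the libraries labelled Prf KO and 13.02 and 14.8 FPKM in WT (log2 fold change -0.22, SE 0.29). Ufd1l had 28.1 and 64.5 FPKM in the libraries labelled Prf KO and 82.8 and 66.5 FPKM in WT (log2 fold change -0.79, SE 0.38). Nploc4, its partner, had 1.94 and 3.78 FPKM in the libraries labelled Prf KO and 8.83 and 3.90 FPKM in WT (log2 fold change -0.89, SE 0.46). In both genes replicate 2 of the 2 groups stood close together. With each library left out in turn, the log2 fold change ranged over -1.37 to -0.20 for Ufd1l and over -1.39 to -0.39 for Nploc4.

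Among the partners with higher values, Nfe2l2 encodes NRF2, a transcription factor of the oxidative stress response that can induce proteasome genes. It had 60.5 and 68.6 FPKM in the libraries labelled Prf KO and 57.2 and 34.9 FPKM in WT (log2 fold change 0.52, SE 0.30, limma adjusted p = 0.866). The ubiquilin gene Ubqln2, a shuttle factor, had 15.2 and 11.7 FPKM in the libraries labelled Prf KO and 8.11 and 9.48 FPKM in WT (log2 fold change 0.55, SE 0.30). Psmg4, a core assembly chaperone gene, had 22.5 and 17.6 FPKM in the libraries labelled Prf KO and 15.3 and 15.1 FPKM in WT (log2 fold change 0.37, SE 0.28). For these 3 genes the groups did not overlap. With each library left out in turn, the log2 fold change ranged over 0.17 to 0.87 for Nfe2l2, with the lowest value without WT replicate 2, over 0.37 to 0.73 for Ubqln2 and over 0.20 to 0.54 for Psmg4. Shfm1, the gene of the small lid subunit Sem1, had 105 and 63.0 FPKM in the libraries labelled Prf KO and 37.4 and 64.4 FPKM in WT (log2 fold change 0.71, SE 0.35), with replicate 2 alike in both groups and a range of 0.33 to 1.10 with each library left out. Nfe2l1, which encodes the NRF1 factor that restores subunit transcription when proteasomes are inhibited, overlapped between groups, with 40.9 and 33.7 FPKM in the libraries labelled Prf KO and 34.1 and 26.3 FPKM in WT (log2 fold change 0.30, SE 0.27), and was picked with its values in view.

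The immunoproteasome genes were set against the constitutive subunits they replace, within each library and on the scale of log2(FPKM + 1). Psmb9, which replaces Psmb6, had 70.3 and 59.5 FPKM in the libraries labelled Prf KO and 89.1 and 107 FPKM in WT (log2 fold change -0.59, SE 0.25). Psme1, a subunit of the PA28 activator, had 31.5 and 29.7 FPKM in the libraries labelled Prf KO and 37.7 and 54.8 FPKM in WT (log2 fold change -0.56, SE 0.28). Both were lower in both libraries labelled Prf KO, with a limma adjusted p of 0.866 each, and Psme1 came to -0.30 without WT replicate 2. The log2 ratio of Psmb9 to Psmb6 was 1.94 and 1.66 in the libraries labelled Prf KO and 2.27 and 2.38 in WT, a difference of -0.52 without overlap. Psmb10, which replaces Psmb7, had 36.6 and 45.3 FPKM in the libraries labelled Prf KO and 50.9 and 57.0 FPKM in WT (log2 fold change -0.39, SE 0.25). Its ratio was -1.74 and -1.54 in the libraries labelled Prf KO and -1.495 and -1.58 in WT, a difference of -0.10 with overlap. Psmb8, which replaces Psmb5, had 25.6 and 31.7 FPKM in the libraries labelled Prf KO and 26.3 and 37.0 FPKM in WT (log2 fold change -0.13, SE 0.28). Its ratio was 3.61 and 3.93 in the libraries labelled Prf KO and 3.44 and 3.55 in WT, a difference of 0.28 that rests on the low and uncertain values of Psmb5 and was 0.05 with a pseudocount of 5. The 3 two-sided exact permutation tests, adjusted over the 3, gave p = 0.5 for Psmb9, 0.667 for Psmb10 and 0.5 for Psmb8, and 2 libraries against 2 cannot give an unadjusted p below 0.3333. The gene spans of Psmb8, Psmb9, Psmb10 and Psme1 each overlap an annotated gene on the opposite strand (Tap1 for Psmb9). Their levels may be uncertain too, since overlap of exons was not examined.

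The second PA28 gene, Psme2, was low and has a protein-coding copy. Psme2 had 3.68 and 2.46 FPKM in the libraries labelled Prf KO and 2.73 and 2.67 FPKM in WT. Psme2b, whose transcript is 99.4% identical over 794 bases, had 99.1 and 148 FPKM in the libraries labelled Prf KO and 151 and 183 FPKM in WT. Psme2b was picked with its values in view, and the share of reads assigned to each is uncertain.

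**Figure D4:**
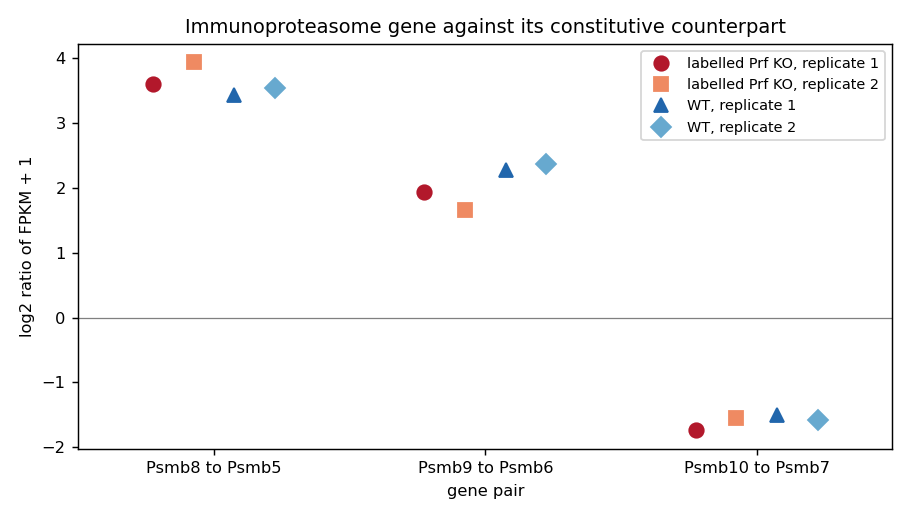
Log2 ratio of (FPKM + 1) of an immunoproteasome gene to that of the constitutive subunit gene it replaces, for 3 gene pairs; each point is 1 library and 0 marks equal values. The ratio of Psmb9 to Psmb6 lies at 1.94 and 1.66 in the libraries labelled Prf KO, below the WT values of 2.27 and 2.38, and the points of Psmb10 to Psmb7 overlap.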

How the data were processed

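Bowtie 0.12.2 and the mouse build mm8 are named, with no role given, per the submitters' processing notes. Libraries were made from total RNA with a TruSeq RNA kit, per the labels' protocols, and that kit does not mark strand. The sources used here do not give the quantification tool, the annotation or the handling of reads with several matches. The unit is named neither in the header nor in the labels. The deposited values were read as FPKM, since they are not whole numbers and do not sum to a common total. They carry no read numbers, so the depth is unknown and no counting interval is given. No file coordinates exist, and GENCODE M21 and RefSeq GRCm38.p6 served for copies, overlaps and promoter sequences.

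The analysis used log2(FPKM + 1), unscaled, with limma 3.58.1 in R 4.3.3 (moderated test with intensity trend, two-sided) over the 9805 symbols with a mean of at least 1, and with Benjamini-Hochberg adjustment over all of them. Fold changes understate those of low genes. The test script was tested on simulated data. Copies were found with BLAST 2.17.0. Alternatives covered scaling, the filter, the pseudocount, limma's settings, the replicate block and leaving out each library. The members, the partner list and the naming rule (per group, the 3 smallest p, the highest mean and the catalytic genes; for partners, 4 in each direction and Psmb8, Psmb9 and Psmb10; also genes next to the mean limit, and Prf1) were chosen with earlier results of these data known.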

Additional observations from a re-analysis of the deposited data

How the results depend on the processing

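No member passed an adjusted p of 0.05 under any setting tried, by limma in every case. The smallest adjusted p was 0.112, without the library labelled Prf KO replicate 2, where 10 of 34 members were lower and 0 higher at an unadjusted p under 0.05, as were 1435 and 638 of all 9805 tested genes. With the replicate block, members lower within both same-numbered pairs were 24, against 1 higher (31.3% and 21.4% of all tested genes, 2102 higher). Partners were 16 lower and 8 higher (50% and 25% of those tested), and no call changed. The numbers are not shown to pair the libraries: the deviations of same-numbered libraries correlated at 0.07 over all tested genes and at -0.15 over the 34 members. With a mean of at least 5, 906 of all tested genes were higher in both libraries labelled Prf KO, and Psma3, Psmb3, Psmb5, Psmd11, Psmc3ip and some partners were left without a value.

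Scaling moved the median of all tested genes from -0.080 to -0.0065 (upper quartile), -0.020 (quantile), 0.012 (common total, chosen after the data were seen) and 0.0023 (common total without Ubb, likewise). The beta ring median came to -0.013, -0.032, 0.0073 and -0.0034 under those settings and to -0.043 with median scaling, and the partner median to -0.025 with the common total. Psmb6 came to 0.017, 0.0066, 0.038 and 0.027, and Psmd2 to 0.00075, 0.0022, 0.022 and 0.011. The cause of these shifts was not tested. Members without a near-identical copy (27) had a median of -0.25 with 14 lower and 0 higher, against 21.9% and 13.9% of all tested genes.

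Leaving out each library in turn gave 0 to 1 genes past the threshold in each direction, 2555 to 3125 higher and 3351 to 4790 lower without overlap, and an all-gene median of -0.147 to -0.00995. Members ranged over 16 to 29 lower and 1 to 4 higher, and partners over 11 to 18 lower and 8 to 12 higher, with fewer libraries compared and the lone library of a group assumed to vary like the other group. Medians ranged over -0.212 to -0.0040 for partners, -0.324 to -0.094 for the beta ring, -0.520 to -0.010 for ATPases, -0.469 to 0.090 for the other base genes, -0.498 to -0.196 for the lid, -0.381 to -0.155 for the alpha ring and -0.698 to 0.052 for the base chaperones. Signs turned for 13 of the 34 members, namely Psma2 (-0.410 to 0.014), Psma6 (-0.237 to 0.149), Psmb4 (-0.324 to 0.310), Psmb6 (-0.140 to 0.015), Psmc2 (-0.626 to 0.0014), Psmc5 (-0.323 to 0.225), Psmc6 (-0.137 to 0.072), Psmd1 (-0.469 to 0.154), Psmd2 (-0.255 to 0.090), Psmd3 (-0.160 to 0.193), Psmd5 (-0.403 to 0.052), Psmd9 (-0.698 to 0.124) and Psmc3ip (-0.359 to 0.510), and for Psmb8 among the 10 partners chosen by the naming rule (-0.364 to 0.111).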
